A study of Mus musculus with 4 samples.

Results

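Neat1, Malat1, Meg3 and H19 are long noncoding RNAs, and they were chosen by name, with earlier results of these data known, as 4 genes of the 34469 listed in the single-cell tables of mouse vascular smooth muscle cells (VSMCs). The values that led to the choice were their levels across cell states and genotypes and their relation to the depth of each cell, so those values are described here without a test. TRF2 protects chromosome ends, and its mutant form Trf2T188A, expressed from a minimal Sm22a promoter in smooth muscle, was used by the study to bring on premature senescence of VSMCs. In the plaque experiment, atherosclerotic plaques of the aortic root, aortic arch and carotid arteries were taken from high fat-fed male Myh11-CreERt2/Confetti/ApoE-/- mice (ApoE-/-) and from Myh11-CreERt2/Confetti/Sm22a-Trf2T188A/ApoE-/- mice (Trf2T188A/ApoE-/-), so that both genotypes lacked ApoE and carried the inducible Myh11 Cre and the Confetti reporter. In the injury experiment, remodelled carotid arteries of male wild-type control and Sm22a-Trf2T188A (Trf2T188A) mice were taken 28 days after ligation with the adventitia removed. All mice were on a C57Bl/6 background, and each genotype of each experiment was 1 library of the 10x 3' v3 kit.

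Malat1 is retained in the nucleus at splicing speckles. Neat1 is the scaffold of the paraspeckle, a nuclear body that forms around its long isoform, and it is induced by cellular stress. Meg3 and H19 are imprinted RNAs expressed from the maternal chromosome, Meg3 beside Rian and Mirg in the Dlk1 domain and H19 beside Igf2, and H19 is known for its high level in fetal tissue and its re-appearance in injured arteries. Because Malat1 and Neat1 stay in the nucleus, a cell that has lost cytoplasm can hold a larger share of them. The counted reads come from the 3' side of transcripts captured by oligo-dT, and levels of different genes are therefore not compared with each other.

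The ends at which the kit can capture these RNAs are shown because they bear on what a count stands for. Malat1 (chr19:5795690-5802672, minus strand) and Neat1 (chr19:5824708-5845478, minus strand) lie 22035 bases apart on GRCm38 in the GENCODE annotation, Meg3 lies at chr12:109541001-109571726 on the plus strand and spans the Mir770 gene, and H19 lies at chr7:142575529-142578143 on the minus strand and spans the Mir675 gene. The last 60 bases of each transcript are given 5′ to 3′, with a polyadenylation signal AATAAA in capitals where the window holds one. The last line shows the only run of 8 or more A bases found in these 5 transcripts, 12 A bases in capitals that end 298 bases before the annotated end of Malat1.
Neat1-201, chr19:5824708-5824767: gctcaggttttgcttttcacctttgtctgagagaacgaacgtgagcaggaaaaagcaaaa
Neat1-202, chr19:5842307-5842366: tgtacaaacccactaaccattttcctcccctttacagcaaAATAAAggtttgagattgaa
Malat1-201, chr19:5795690-5795749: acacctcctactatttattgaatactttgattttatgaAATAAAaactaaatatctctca
Meg3-207, chr12:109571662-109571721: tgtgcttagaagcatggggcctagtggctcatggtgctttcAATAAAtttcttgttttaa
H19-202, chr7:142575529-142575588: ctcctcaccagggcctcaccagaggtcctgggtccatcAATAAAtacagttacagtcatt
Malat1 A run, chr19:5795980-5796039: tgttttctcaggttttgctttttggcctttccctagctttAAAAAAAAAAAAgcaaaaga
The long Neat1 transcript of 20771 bases had no AATAAA in its last 60 bases, whereas the short transcript of 3004 bases had 1. The mature ends of Malat1 and of long Neat1 are known to be stabilised by an RNA triple helix instead of a poly(A) tail, and the counts do not say which Neat1 isoform or which A-rich site a molecule came from.

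The libraries held 1502 ApoE-/- and 929 Trf2T188A/ApoE-/- plaque cells and 4967 control and 5392 Trf2T188A ligation cells, with 37869934, 24064570, 47713453 and 67426588 unique molecular identifiers (UMIs, counted RNA molecules). The median cell had 22765.5, 24377, 8631 and 11153 UMIs and 5086.5, 5182, 2900 and 3360 detected genes, in the same order. The 4 genes together took between 2.79% and 3.25% of all UMIs of a library. Myh11, the smooth muscle myosin, was found in 86.8% to 97.1% of cells. Ptprc, the pan-leukocyte marker, was found in 0.133% to 1.09% of cells. The study's filters differed within the plaque experiment, with a minimum of 1500 detected genes for ApoE-/- cells and a lower one for Trf2T188A/ApoE-/- cells, of which 32 were under 1500. Terf2, the gene of TRF2, had a mean of 0.189 and 0.180 UMIs per 10000 in the plaque libraries and of 0.180 and 0.164 in the ligation libraries, so it was not higher with the transgene, whose 3' end may lie outside the reads counted for Terf2. There were 10 cell barcodes shared between the 2 ligation libraries, 0 between the 2 plaque libraries and 5 between the experiments. Levels are given as the mean over cells of UMIs per 10000 UMIs of the cell, with 95% intervals that cover counting error only. With 1 library per genotype the spread between animals is unknown, and no difference below carries a p-value.

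In plaque, the mean Neat1 level was 1.43 UMIs per 10000 (1.38 to 1.48) in ApoE-/- and 1.54 (1.46 to 1.61) in Trf2T188A/ApoE-/- cells, and 72.8% and 73.1% of cells had a Neat1 UMI. After ligation it was 7.50 (7.41 to 7.58) in control and 5.06 (5.0 to 5.12) in Trf2T188A cells, with a UMI in 89.2% and 87.5% of cells. Neat1 was therefore lower in the Trf2T188A library after ligation and close to equal over all plaque cells. These shares of cells with a UMI were not taken at equal depth, and Trf2T188A ligation cells were deeper than control cells. Cells of an experiment were also thinned to the same number of UMIs, with shallower cells left out. A Neat1 UMI was then found in 82.6% of control and 74.6% of Trf2T188A ligation cells. In plaque the thinned shares hardly differed, at 48.8% in ApoE-/- and 47.8% in Trf2T188A/ApoE-/- cells. Levels of the 2 experiments stand side by side only, since they were made with different versions of the counting software.

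Malat1 had a mean of 294 UMIs per 10000 (293 to 295) in ApoE-/- and 350 (349 to 351) in Trf2T188A/ApoE-/- plaque cells, and of 323 in both ligation libraries (322.2 to 323.3 in control, 322.9 to 323.9 in Trf2T188A). At least 99.9% of the cells of every library had a Malat1 UMI. The level of the median cell differed less than the mean in plaque, 254 against 282. Single cells reached 1991 UMIs per 10000 in ApoE-/- and 2572 in Trf2T188A/ApoE-/-.

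Meg3 had a mean of 1.90 in ApoE-/- and 1.61 in Trf2T188A/ApoE-/- plaque cells, and of 3.04 in control and 2.44 in Trf2T188A ligation cells. A Meg3 UMI was found in 59.5%, 55.9%, 53.4% and 54.3% of cells, in that order. Meg3 was thus lower in the Trf2T188A library of both experiments. Cells that should lack it held far less of it: in the Trf2T188A ligation library 10.3% of 58 myeloid and other immune-like cells had a UMI at a median of 8458.5 UMIs per cell, and their mean was 0.248 (0.149 to 0.346), whereas the whole library had a median of 11153 UMIs.

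H19 was close to absent. It had 43 UMIs in 7 of 1502 ApoE-/- cells (0.466% of cells, exact 95% interval 0.188% to 0.958%), 8 UMIs in 3 of 929 Trf2T188A/ApoE-/- cells (0.323%, 0.0666% to 0.941%) and 1 UMI in 1 of 4967 control ligation cells, and the Trf2T188A ligation table does not list it. A single chondrocyte-like ApoE-/- cell held 31 of the 43 UMIs, and this cell also had 80 Meg3 UMIs and 7158 UMIs of Col2a1, the cartilage collagen, and 0 of Igf2. The cell with the most H19 in the Trf2T188A/ApoE-/- library, with 6 UMIs, was chondrocyte-like as well. Per UMI of the library H19 was 0.293 times as frequent in Trf2T188A/ApoE-/- as in ApoE-/- plaque (0.119 to 0.630), and without the cell with 31 UMIs the ratio was 1.05 (0.371 to 2.78). The difference therefore rested on 1 cell, and no genotype ratio is given for ligation, where both values lie under the limit of 3 counts.

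Cells were grouped into classes by clustering, and classes were named from markers. The 4 genes were left out of the clustering, as were the lists of paraspeckle proteins and of nuclear speckle and SR proteins. The lists of other nuclear lncRNAs, snoRNA hosts, imprinted growth genes and the 2 imprinted loci were also left out (74 genes in all). The other lists below were not left out, nor were ribosomal protein and mitochondrially encoded genes. In plaque, 12 of 14 clusters received a name, and after ligation all 6 did. The markers came from the study's cluster markers of these same cells and from standard cell type markers. The names therefore describe the clusters and are not an independent identification. In plaque, Neat1 was highest in chondrocyte-like cells, with 4.14 in ApoE-/- and 3.58 in Trf2T188A/ApoE-/-, and in Ifrd1 Nfkb1 Flnc-like cells, with 3.48 and 3.45, and the intervals of these classes overlapped in both libraries. Timp1 Thbs1 fibromyocyte-like cells followed with 2.47 and 2.11. The lowest level was found in Rgs5 Csrp2 contractile-like cells, with 0.684 and 0.572, next to Sparcl1 Sost contractile-like cells with 0.706 and 0.650. Neat1 was thus lowest in these 2 contractile-like classes and highest in classes led by cartilage genes or by Ifrd1 and Nfkb1. The same classes stood at both ends of the order in both genotypes. Not every contractile-like class was at the bottom. Pln Sncg Notch3 contractile-like cells had 1.14 and 1.12, against 0.999 and 0.706 in Itih4 Wnt16 Fgl2 intermediate-like cells.

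Malat1 had its highest plaque level in Ifrd1 Nfkb1 Flnc-like cells, with 538 (532 to 544) in ApoE-/- and 750 (742 to 757) in Trf2T188A/ApoE-/- cells, and its lowest in Sparcl1 Sost contractile-like cells, with 208 and 199. Every other class of at least 20 cells lay between 245 and 380 in both libraries. One class therefore stood apart from the rest for Malat1, and it did so in both genotypes.

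Meg3 was highest in Adamtsl1 Mdga2 Bmpr1b-like cells (5.56, 4.94 to 6.19) and in chondrocyte-like cells (5.06, 4.77 to 5.35) of ApoE-/- plaque, whose intervals overlapped. In Trf2T188A/ApoE-/- plaque it was highest in Ifrd1 Nfkb1 Flnc-like cells (3.47, 2.98 to 3.97), followed by chondrocyte-like cells (2.74, 2.38 to 3.11) and Adamtsl1 Mdga2 Bmpr1b-like cells (2.32, 2.02 to 2.62). The lowest level was again in Rgs5 Csrp2 contractile-like cells, 0.881 and 0.814. The class with the highest mean Meg3 level differed between the genotypes, and the class with the lowest mean did not. In Trf2T188A/ApoE-/- plaque the interval of the top class overlapped that of chondrocyte-like cells. The interval of Rgs5 Csrp2 contractile-like cells overlapped that of the class above them in both libraries. Counting error alone therefore leaves these ranks open.

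**Figure D1:**
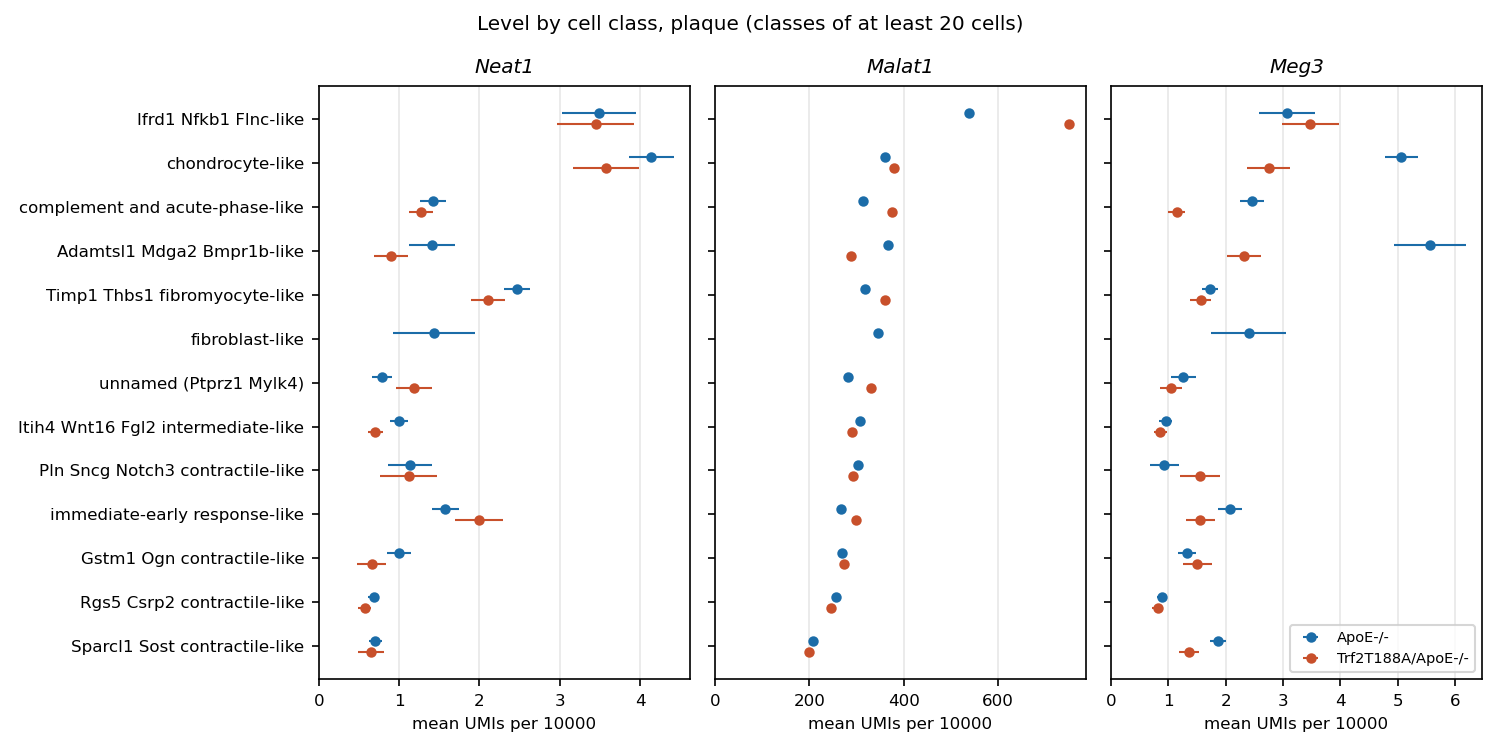
Mean level of Neat1, Malat1 and Meg3 in UMIs per 10000 (x axes) in each plaque cell class of at least 20 cells (y axis), with ApoE-/- cells in blue, Trf2T188A/ApoE-/- cells in orange and bars for the 95% counting interval. Malat1 stands apart in Ifrd1 Nfkb1 Flnc-like cells at 538 and 750, and Meg3 falls below its ApoE-/- value of 5.06 in chondrocyte-like Trf2T188A/ApoE-/- cells at 2.74.

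The Ifrd1 Nfkb1 Flnc-like class also stood apart in library measures. It held 77 ApoE-/- cells (5.13% of the library) and 97 Trf2T188A/ApoE-/- cells (10.4%), with a median of 9101 and 7386 UMIs and of 2847 and 2593 detected genes, against 12933 to 36229 UMIs and 4005 to 6087 genes in the other classes of at least 20 cells. Cytosolic ribosomal protein genes made up 1.46% and 1.23% of its UMIs and 6.80% to 10.2% in the other classes. Its mitochondrial share was 5.33% in ApoE-/- and 2.58% in Trf2T188A/ApoE-/-, against 0.604% to 3.05% elsewhere, and its share of a list of very long genes, whose unspliced RNA is nuclear, was 1.89% and 2.06% against 0.284% to 0.943%. The class with the most Malat1 therefore also had the fewest UMIs and genes, the least ribosomal protein RNA and the most long-gene RNA. Its long-gene share is not independent of the clustering, since Nav2, Dmd, Slit3 and Kalrn of that list were among its 10 leading genes. The part of damaged or stripped cells in the Malat1 level of this class was not tested. Its share of the library was not taken at an equal minimum of detected genes. That minimum was lower for Trf2T188A/ApoE-/- cells, and its part in the 5.13% against 10.4% was not tested.

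After ligation, Gdf10 Ecrg4 de-differentiated-like cells had the highest level of all 3 genes in both libraries. Neat1 was 9.49 (9.29 to 9.69) in control and 6.49 (6.34 to 6.65) in Trf2T188A cells of this class, Malat1 351 and 338, and Meg3 3.81 and 3.22. Endothelial-like cells, which the digest of the remodelled artery also held, had 5.0 and 4.59 Neat1, 229 and 236 Malat1, and 1.08 and 0.761 Meg3. A Meg3 UMI was found in 21% of 62 and 21.5% of 65 of these cells, at a median of 10407 and 14166 UMIs. In the Trf2T188A library, immune-like cells had the least Malat1 (213). The range over classes was narrower than in plaque for Malat1, and Meg3 was lowest in the classes that are not smooth muscle.

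**Figure D2:**
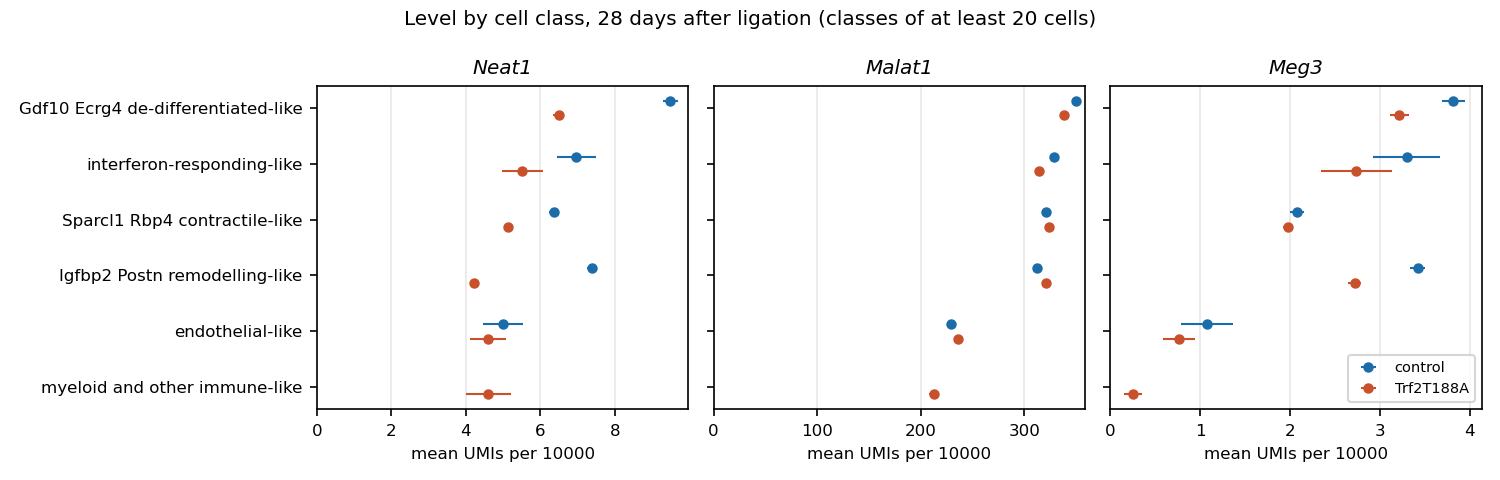
Mean level of Neat1, Malat1 and Meg3 in UMIs per 10000 (x axes) in each class of at least 20 cells after ligation (y axis), with control cells in blue, Trf2T188A cells in orange and bars for the 95% counting interval. Neat1 in Igfbp2 Postn remodelling-like cells sits at 7.37 in control and 4.23 in Trf2T188A, while Malat1 lies above 310 in every smooth muscle class of both libraries.

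To compare genotypes, 1 was added to the mean level of each library and the log2 of their quotient was taken, Trf2T188A over its control. A gene was tested where 10% or more of the cells in 1 of both libraries had a UMI of it, and called where this ratio was 0.25 or more in size. The added 1 makes the ratio small for a gene with a mean level well below 1. Such a gene could be tested but could hardly be called. Over all plaque cells, 1 of the 3 members tested was called: the ratio of Malat1 was 0.25 (0.24 to 0.26), that of Neat1 0.06 (0.01 to 0.11) and that of Meg3 -0.16 (-0.21 to -0.11). Among all 10526 genes tested, 0.57% were called higher and 0.247% lower. These shares, and those given below, count genes of every level and are not matched to the level of Malat1, Neat1 or Meg3. H19 was detected in too few cells to be tested. The Malat1 value lay on the threshold itself. Without Ifrd1 Nfkb1 Flnc-like cells it was 0.11, without cells under 1500 detected genes 0.21 and with the same weight for each class in both libraries 0.11, so the call ended under each of these. The Neat1 ratio ranged from -0.084 to 0.10 under the alternatives, and the Meg3 ratio passed the threshold from summed UMIs (-0.30) and without Ifrd1 Nfkb1 Flnc-like cells (-0.25).

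After ligation, 1 of 3 members was called over all cells: the ratio of Neat1 was -0.49 (-0.51 to -0.47), that of Meg3 -0.23 (-0.25 to -0.20) and that of Malat1 0.00 (0.00 to 0.01). Of 8247 genes tested, 0.837% were called higher and 0.255% lower. Of the 2 nuclear RNAs that are neighbours on chromosome 19, Neat1 was thus called and Malat1 was not, and the difference between their ratios was not tested. The Neat1 ratio lay between -0.56 and -0.41 under all alternatives and was -0.49 without endothelial-like and immune-like cells.

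By class, Neat1 was called lower after ligation in 4 of 5 classes. It went from 7.37 in control to 4.23 in Trf2T188A in Igfbp2 Postn remodelling-like cells (log2 ratio -0.68, where 0.776% of genes were called lower) and from 9.49 to 6.49 in Gdf10 Ecrg4 de-differentiated-like cells (-0.49, 0.662%). It went from 6.97 to 5.52 in interferon-responding-like cells (-0.29, 3.44%) and from 6.37 to 5.13 in Sparcl1 Rbp4 contractile-like cells (-0.27, 0.168%). The first 2 calls held under every alternative, and the others ranged from -0.50 to -0.13 and from -0.37 to -0.18. In endothelial-like cells, which lie outside the lineage that the promoter drives, the ratio was -0.10 (-0.28 to 0.08), and the difference between this ratio and those of the smooth muscle classes was not tested. Malat1 was not called in any of the 5 classes, with ratios from -0.06 to 0.04, and neither was Meg3, with 5 of 5 ratios negative between -0.25 and -0.05. Genes called higher were 1.49% in Igfbp2 Postn remodelling-like, 1.05% in Gdf10 Ecrg4 de-differentiated-like, 2.73% in interferon-responding-like, 0.804% in Sparcl1 Rbp4 contractile-like and 3.58% in endothelial-like cells, in the last of which 4.32% were called lower.

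In plaque, Meg3 was called lower in 5 of 12 classes and higher in 1, and the share of all genes called is given beside each class. It went from 5.06 to 2.74 in chondrocyte-like cells (-0.69, where 1.96% of genes were called lower), from 2.46 to 1.14 in complement and acute-phase-like cells (-0.69, 1.28%) and from 5.56 to 2.32 in Adamtsl1 Mdga2 Bmpr1b-like cells (-0.99, 8.73%). The share of cells with a Meg3 UMI went from 85.2% to 66.7%, from 78.4% to 67.0% and from 90.5% to 73.6% in these classes. Their median depth was 36229 and 32841 UMIs per cell in the first, 25221 and 29372 in the second and 18904 and 21231 in the last, ApoE-/- before Trf2T188A/ApoE-/-. These 3 calls held under every alternative, with ranges of -1.11 to -0.64, -1.04 to -0.53 and -1.23 to -0.70. The other lower calls were smaller, -0.28 in Sparcl1 Sost contractile-like cells (0.552% of genes) and -0.26 in immediate-early response-like cells (1.52%), and the alternatives took them to -0.13 and -0.15. The higher call was 0.40 in Pln Sncg Notch3 contractile-like cells (5.33%), which held only 44 and 22 cells, and 0.079 as a difference of mean log2 values. In the opposite direction to those calls, 3.03% of genes were called in chondrocyte-like, 1.5% in complement and acute-phase-like, 6.2% in Adamtsl1 Mdga2 Bmpr1b-like, 0.481% in Sparcl1 Sost contractile-like, 1.3% in immediate-early response-like and 5.24% in Pln Sncg Notch3 contractile-like cells.

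Neat1 and Malat1 gave few calls by class in plaque, and none of these calls held under every alternative. The Neat1 ratio was negative in 10 of 12 classes (median -0.09), although it was 0.06 over all cells. Neat1 was called higher in 1 of 12 classes, the unnamed cluster led by Ptprz1, Mylk4 and Sost (0.29, where 0.969% of genes were called higher), and lower in 2, Gstm1 Ogn contractile-like (-0.27, 1.27%) and Adamtsl1 Mdga2 Bmpr1b-like cells (-0.34, 8.73%). Under the alternatives these ratios ranged from -0.023 to 0.53, from -0.53 to -0.11 and from -0.59 to -0.086. Malat1 was called higher in Ifrd1 Nfkb1 Flnc-like cells, from 538 to 750 (0.48, 4.22%), and lower in Adamtsl1 Mdga2 Bmpr1b-like cells, from 366 to 287 (-0.35, 8.73%). The first was 0.248 without cells under 2000 detected genes, which ended the call, and the second ranged from -0.54 to -0.12. In the remaining 10 classes the Malat1 ratio was under the threshold, and in complement and acute-phase-like cells it was 0.25 when rounded, from 315 to 374. Across those classes without a call of any member, 0.211% of genes were called higher and 0.327% lower in Rgs5 Csrp2 contractile-like, 1.06% and 1.75% in Timp1 Thbs1 fibromyocyte-like, and 0.816% and 0.566% in Itih4 Wnt16 Fgl2 intermediate-like cells. In Gstm1 Ogn contractile-like cells 1.04% were called higher, and 0.559% in the unnamed cluster and 4.76% in Ifrd1 Nfkb1 Flnc-like cells were called lower.

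**Figure D3:**
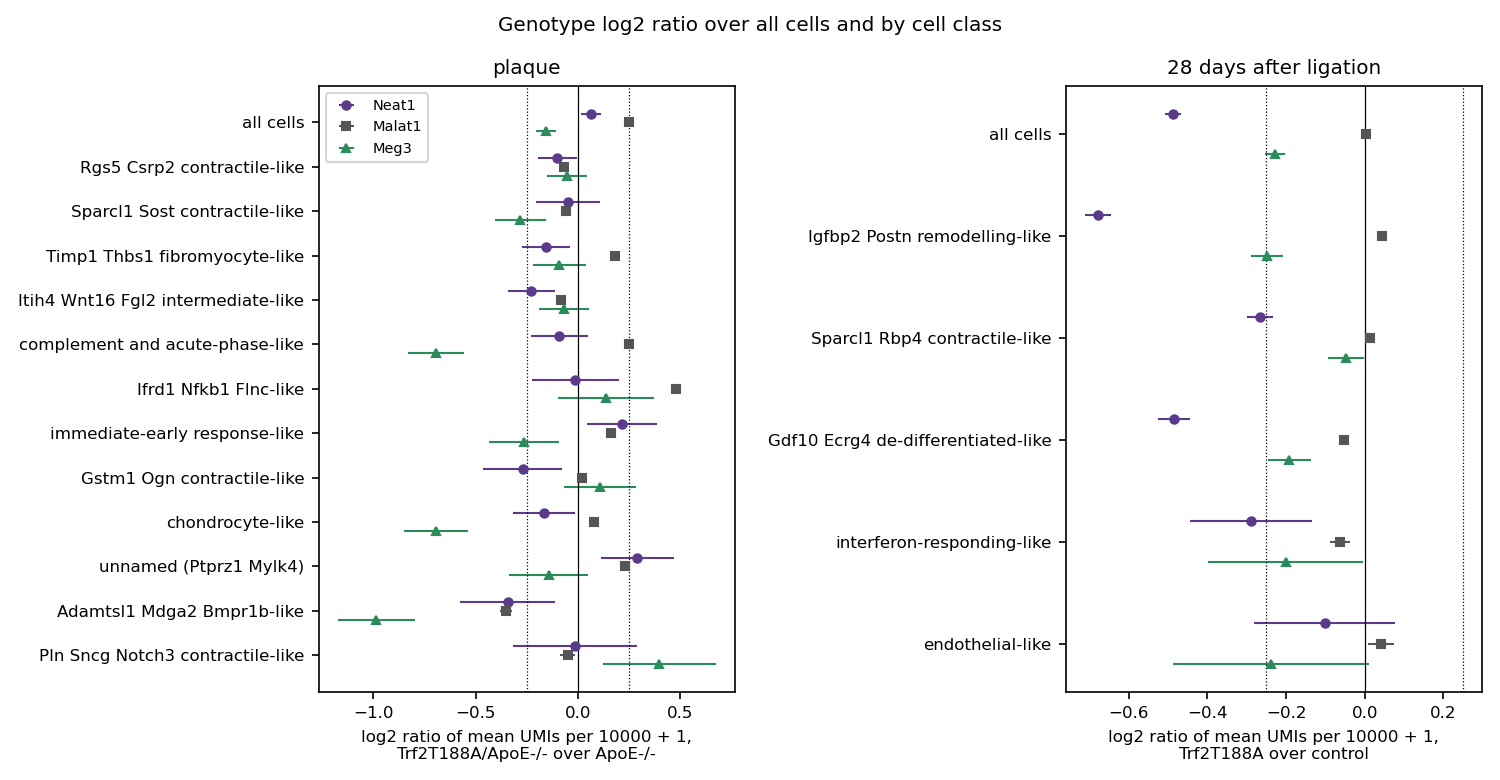
Log2 ratio of mean UMIs per 10000 plus 1, Trf2T188A/ApoE-/- over ApoE-/- in plaque (left) and Trf2T188A over control after ligation (right), for Neat1 (circles), Malat1 (squares) and Meg3 (triangles) over all cells and in each class, with 95% counting intervals and dotted lines at 0.25 in size. All 5 Neat1 ratios by class lie below 0 after ligation, and Meg3 reaches -0.99 in Adamtsl1 Mdga2 Bmpr1b-like plaque cells.

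Rian and Mirg lie beside Meg3 and are expressed from the same chromosome. Rian had a mean of 0.382 in ApoE-/- and 0.343 in Trf2T188A/ApoE-/- plaque cells and of 0.504 in control and 0.361 in Trf2T188A ligation cells (log2 ratios -0.04 and -0.14). In the 3 plaque classes with the most negative Meg3 ratios, Rian went from 0.763 to 0.349 in chondrocyte-like cells, from 0.622 to 0.219 in complement and acute-phase-like cells and from 1.51 to 0.425 in Adamtsl1 Mdga2 Bmpr1b-like cells. Mirg had 116, 65, 214 and 221 UMIs in the 4 libraries and was too sparse for a ratio. In the other 2 classes with a lower Meg3 call, Rian went from 0.255 to 0.389 (Sparcl1 Sost contractile-like) and from 0.663 to 0.671 (immediate-early response-like). Rian was thus lower with Meg3 in 3 of these 5 classes.

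Likeness over cells was measured as Spearman's rho after each cell had been thinned to 8000 UMIs in plaque and 5000 after ligation, and genes were ranked by the lower rho of the 2 libraries. The gene most like Meg3 was Rian in both experiments, with rho of 0.43 and 0.43 in plaque (1410 and 807 cells) and 0.42 and 0.38 after ligation (4642 and 5238 cells). The next were Piezo2, a mechanosensitive channel (0.18 and 0.16), and Pdzrn4 (0.18 and 0.15) in plaque, and the collagen genes Col1a2 (0.13 and 0.16) and Col1a1 (0.11 and 0.15) after ligation. Every correlation here is across cells of 1 library, which share their preparation and are not independent replicates, and the weak values among these sparse genes are given for their order only.

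The genes most like Neat1 after ligation were Ifrd1 (0.42 in control and 0.38 in Trf2T188A), Egr1 (0.40 and 0.37) and Fosb (0.35 and 0.35), of which Egr1 and Fosb are immediate-early transcription factors. In plaque they were Fndc3b (0.21 and 0.26), Zswim6 (0.21 and 0.22) and Akap13 (0.20 and 0.19). The genes most like Neat1 were different ones in the 2 experiments. Those most like Malat1 were Gm37376 (0.28 and 0.35), mt-Rnr1, a mitochondrial ribosomal RNA (0.22 and 0.24), and Mir6236 (0.23 and 0.21) in plaque, and Neat1 (0.30 and 0.31), Ahnak (0.26 and 0.23) and Pcdh7 (0.22 and 0.21) after ligation. Neat1 and Malat1 correlated by 0.14 and 0.22 in plaque, and the other pairs among these 3 genes by 0.05 to 0.11 in any library.

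Genes induced during tissue digestion, such as Fos and Egr1, moved with Neat1 after ligation. The rho of Neat1 with the summed share of 16 such genes was 0.41 in control and 0.43 in Trf2T188A cells, against 0.12 and 0.17 in plaque. Among ligation classes of at least 100 cells it was lowest in Gdf10 Ecrg4 de-differentiated-like cells, at 0.11 and 0.23. Over these classes rho with this share ranged from 0.11 to 0.52 in control and from 0.23 to 0.48 in Trf2T188A cells. This share was lower in the Trf2T188A ligation library in sum, at 176 against 193 UMIs per 10000, and 0 of the 16 genes were called higher and 1 lower (Fosb, from 11.5 to 8.96, named after its values were seen). When both libraries were given the same weight in 5 bins of this share, the Neat1 ratio after ligation was -0.41. The part of the digestion response in the Neat1 difference was not tested.

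Malat1 was highest in the shallowest cells. In 5 equal groups of cells ordered by UMIs per cell, the mean Malat1 level from the shallowest to the deepest was 397, 270, 260, 272 and 270 in ApoE-/- plaque and 547, 374, 259, 290 and 278 in Trf2T188A/ApoE-/- plaque. After ligation it was 366, 306, 318, 319 and 304 in control and 365, 320, 322, 316 and 295 in Trf2T188A cells. The shallowest group was thus above the others in all 4 libraries, and the second group stood above the deeper ones in Trf2T188A/ApoE-/- plaque.

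Ifrd1 Nfkb1 Flnc-like cells made up 18.6% of the shallowest group in ApoE-/- and 38.2% in Trf2T188A/ApoE-/- plaque, against 1.75% and 3.50% of the other 4 groups. Within the shallowest group they had a mean Malat1 level of 598 (56 cells) and 822 (71 cells), and the remaining cells had 351 (245 cells) and 378 (115 cells). The cells outside that class in the shallowest group were still above those of the third group, 260 in ApoE-/- and 258 in Trf2T188A/ApoE-/-. The median ribosomal protein share of the shallowest group was 6.97% in ApoE-/- and 2.88% in Trf2T188A/ApoE-/-. The shallowest groups of the plaque libraries were not taken at an equal minimum of detected genes, which was lower for Trf2T188A/ApoE-/- cells.

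Neat1 and Meg3 followed depth differently. In plaque Neat1 was high at both ends of the depth range in ApoE-/- cells (1.93, 1.09, 1.14, 1.11 and 1.88 from the shallowest group to the deepest), and in Trf2T188A/ApoE-/- cells it was 2.56, 1.54, 1.11, 1.09 and 1.40. After ligation it was lower in shallow cells, with 6.22, 6.96, 8.07, 8.11 and 8.13 in control and 4.24, 4.37, 5.60, 5.63 and 5.46 in Trf2T188A cells. Neat1 was lower in the Trf2T188A library in each of these 5 groups. Meg3 was 2.65, 1.75, 1.40, 1.65 and 2.07 in ApoE-/- and 2.46, 1.74, 1.45, 1.28 and 1.10 in Trf2T188A/ApoE-/- plaque, and between 2.37 and 3.24 in every group after ligation. The deepest group therefore held the widest gap in Meg3 between the plaque genotypes, 2.07 against 1.10.

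**Figure D4:**
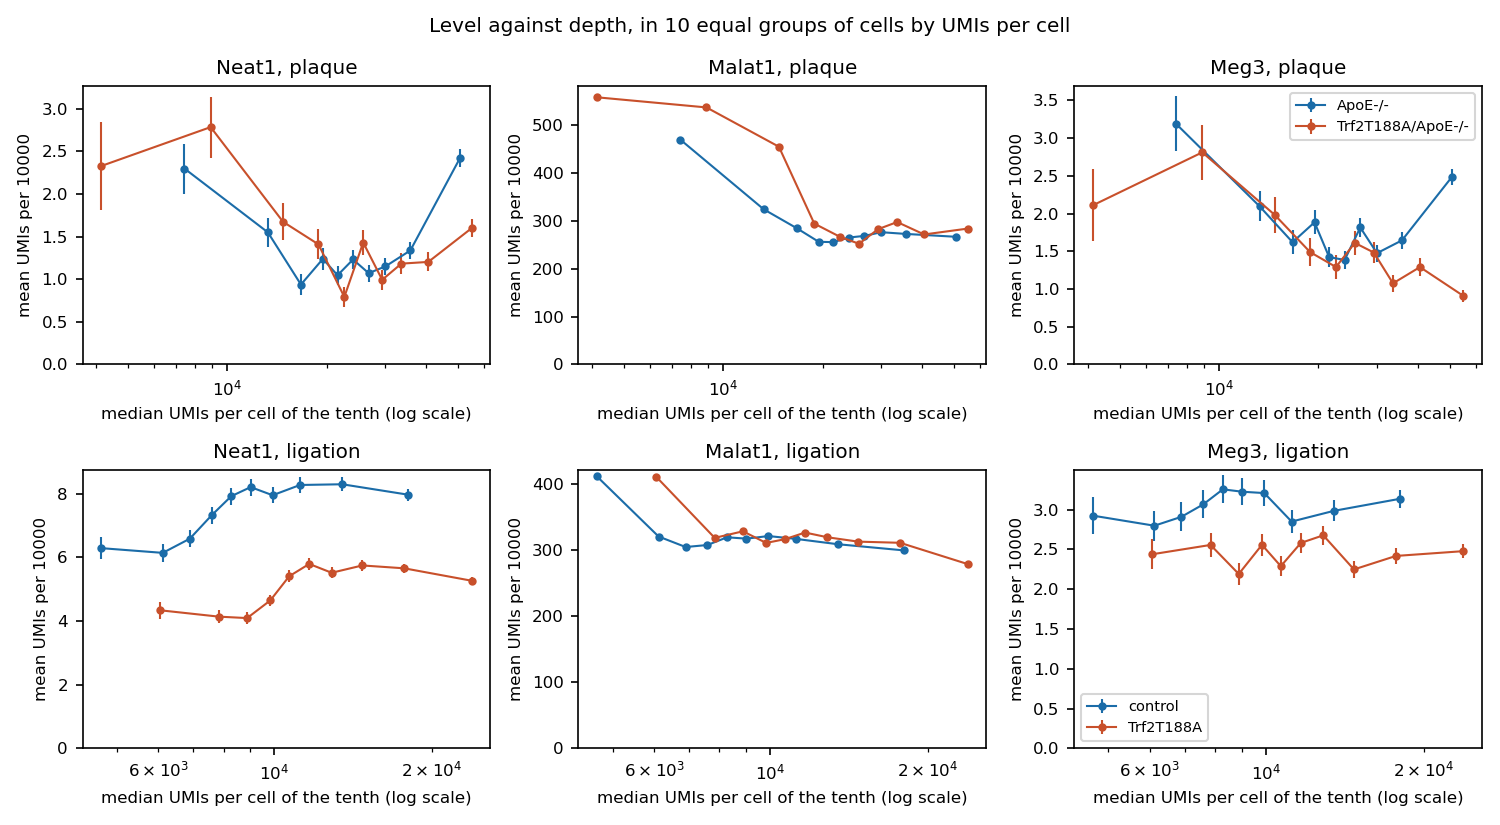
Mean level in UMIs per 10000 (y axes) in 10 equal groups of cells ordered by UMIs per cell, at the median UMIs of each group (x axes, log scale), for plaque (top) and ligation (bottom), with control genotypes in blue, Trf2T188A genotypes in orange and bars for the 95% counting interval. Malat1 is highest at the shallow end in all 4 libraries, and the 2 ligation curves of Neat1 stay apart along the whole range.

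Over single cells the relation to depth was weak. Spearman's rho of the Malat1 level with UMIs per cell was -0.12 in ApoE-/- and -0.21 in Trf2T188A/ApoE-/- plaque, and -0.04 in control and -0.10 in Trf2T188A ligation cells, and with detected genes it was -0.14, -0.21, 0.02 and -0.04. Within classes of at least 100 cells the sign varied in plaque, from -0.29 to 0.11 over 7 ApoE-/- classes and from -0.33 to 0.20 over 3 Trf2T188A/ApoE-/- classes. For Neat1, rho with detected genes was 0.07, 0.01, 0.20 and 0.22 in the 4 libraries, and for Meg3 rho with UMIs was 0.02, -0.03, 0.11 and 0.10. Level and depth share the UMI total of the cell, so part of any such rho is built in.

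The ribosomal protein share separated Malat1 levels more than depth did. Spearman's rho of Malat1 with this share was -0.45 in ApoE-/- and -0.59 in Trf2T188A/ApoE-/- plaque, and -0.38 and -0.37 in control and Trf2T188A ligation cells, and it was negative in each of the 7, 3, 4 and 3 classes of at least 100 cells, between -0.50 and -0.22. From the lowest to the highest of 5 equal groups of cells ordered by this share, the mean Malat1 level went from 461 to 213 in ApoE-/-, from 693 to 200 in Trf2T188A/ApoE-/-, from 427 to 257 in control and from 429 to 264 in Trf2T188A ligation cells. Neat1 went from 2.75 to 1.0, from 3.19 to 0.896, from 9.35 to 5.05 and from 6.99 to 3.08, and its rho was -0.30, -0.31, -0.21 and -0.26. Meg3 also had a higher level in the group with the lowest share, 2.82 against 1.59, 3.11 against 1.08, 3.74 against 2.40 and 3.12 against 1.78, although its rho was only -0.06, -0.11, -0.08 and -0.10. All 3 RNAs thus had a higher level in the group with the lowest share than in that with the highest, in all 4 libraries. Within classes of at least 100 cells, rho of Neat1 was negative in every class. That of Meg3 was negative in 4 of 7, 2 of 3, 3 of 4 and 2 of 3 classes, in the same order. The lowest plaque groups were not split by class, so the part of Ifrd1 Nfkb1 Flnc-like cells in them was not tested. Both quantities are shares of 1 total, and whether cells with little ribosomal protein RNA had lost cytoplasm was not tested.

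**Figure D5:**
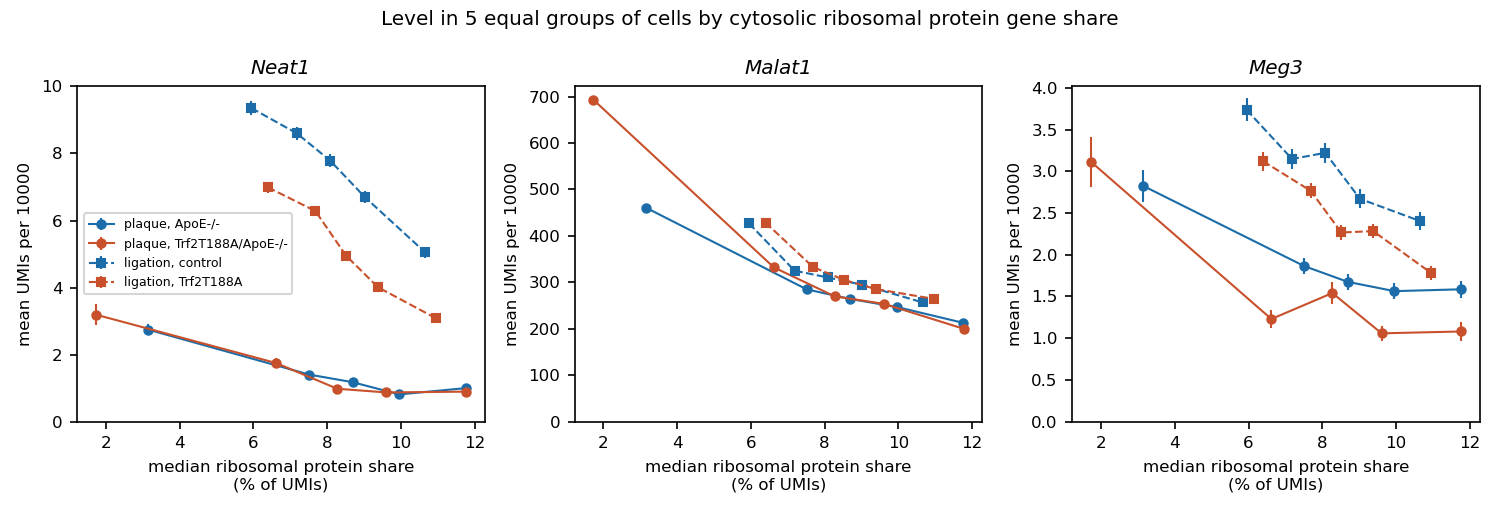
Mean level in UMIs per 10000 (y axes) in 5 equal groups of cells ordered by their cytosolic ribosomal protein gene share, at the median share of each group (x axes, % of UMIs), with plaque as circles, ligation as squares, control genotypes in blue, Trf2T188A genotypes in orange and bars for the 95% counting interval. Malat1 is highest in the group with the lowest share in every library, up to 693 in Trf2T188A/ApoE-/- plaque cells.

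Other shares of the cell were related to Malat1 more weakly. Spearman's rho of Malat1 with the long-gene share was 0.21 and 0.40 in plaque and 0.27 and 0.27 after ligation, and with the mitochondrial share 0.21 and 0.23 in plaque and 0.13 and 0.17 after ligation. Between genotypes, the mitochondrially encoded genes were lower in Trf2T188A/ApoE-/- plaque (0 of 16 tested called higher, 10 lower, median log2 ratio -0.33) and higher in Trf2T188A ligation cells (4 called higher, 0 lower, median 0.11). The cytosolic ribosomal protein genes had a median of -0.10 in plaque (0 of 86 called) and of 0.08 after ligation (16 of 85 called higher, 0 lower). Of all genes tested, 0.57% were called higher and 0.247% lower in plaque and 0.837% and 0.255% after ligation, and their median was 0.00 in both experiments.

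Genes that work with these RNAs were given by lists. Of 10 paraspeckle proteins, the partners of Neat1, 0 were called in either experiment, with a median log2 ratio of 0.01 in plaque and of 0.01 after ligation. Among those with a high level after ligation were Hnrnpk (0.11), Sfpq (-0.09) and Nono (0.01), and none of these was called. Of 11 nuclear speckle and SR proteins, the neighbours of Malat1, 0 were called, with medians of 0.01 and -0.02. In both lists, genes with a mean level well below 1 could hardly be called. For them, 0 calls does not show that their RNA was unchanged.

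Of the other nuclear lncRNAs, 0 of 11 tested were called in plaque (median 0.02) and 1 of 7 was called lower after ligation (median 0.01). That one was Kcnq1ot1, a further imprinted nuclear RNA, from 1.8 to 1.4 (-0.27). Of 10 lncRNAs that host snoRNAs, 0 were called in plaque (median -0.03) and 1 was called higher after ligation (Snhg8, from 0.802 to 1.19, median 0.08). Of the imprinted growth genes, 0 of 9 in plaque (median -0.04) and 0 of 8 after ligation (median -0.01) were called. In the lists of the 2 imprinted loci, Rian of the Meg3 locus and Mrpl23 of the H19 locus (log2 ratio -0.01) were the only genes detected in enough plaque cells for a ratio. The list of long genes gave 0 calls of 21 in plaque (median 0.03) and 0 of 14 after ligation (median -0.04). Genes of these lists with a mean level well below 1 could hardly be called, so 0 calls does not show that they were unchanged.

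For the states these RNAs were set against, 4 of 8 de-differentiation genes were called higher in plaque (0 lower, median 0.29) and 3 of 7 after ligation (0 lower, median 0.22), and 1 of 5 contractile genes was called lower in plaque (median -0.17) and 0 of 5 after ligation (median -0.01). Of 16 digestion-induced genes 1 was called higher in plaque (median 0.10), against the median of -0.11 after ligation. Of 6 heat shock genes 2 were called higher in plaque (median 0.11) and 1 after ligation (median 0.04). Of 10 p53 targets 1 was called higher in each experiment, with medians of 0.01 and -0.02, and it was Gdf15 both times, from 1.02 to 1.42 in plaque and from 1.57 to 2.22 after ligation. These counts stand beside 0.57% higher and 0.247% lower of all genes in plaque and 0.837% and 0.255% after ligation. The shares of all genes include genes of low level that could hardly be called, and the lists were not matched to them by level.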

How the data were processed

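Members and lists were chosen with earlier results of these data known. The authors aligned reads to GRCm38 with Cell Ranger (7.0.0 for plaque, 6.1.2 for ligation, per the submitters' notes), removed cells by detected genes, mitochondrial share and, in plaque, by Confetti expression, and deposited for each cell a normalized signal, the UMIs per 10000 UMIs of the cell. Whether intronic reads were counted is not given in the sources used here. Every deposited value was a whole number of UMIs within 0.01 once the cell's scale was recovered, and these UMIs were used.

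Cells of both libraries of an experiment were clustered in Seurat 5.3.0 (R 4.3.3) with the study's numbers of components and its resolution. A cluster was named when its markers averaged a log2 ratio of at least 0.5, 3 or more markers reached 0.5 and 1 or more was among its 10 leading genes, a rule set after the clusters were seen. A doublet caller (Scrublet in scanpy 1.11.5) marked at most 0.323% of a library and had thus not worked, so no cell was removed for it. Classes under 20 cells in a library gave no ratio. Genotype ratios used a pseudocount of 1, which limits calls of genes with a mean level well below 1. Intervals come from the delta method, with exact Poisson or Clopper-Pearson intervals for H19. On counts simulated with Poisson error alone, 94.9% (plaque) and 95.4% (ligation) of 95% intervals held the true ratio. The intervals assume the same error, so this checks their computation only. It does not show that they cover the unevenness between real cells. Gene positions and sequences were read from the GENCODE M21 annotation and GRCm38. With 1 library per genotype, no test between genotypes was possible. The named genes were the members, the 3 genes most like each of them, and for each list its counts, with up to 4 genes of the highest level.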

Additional observations from a re-analysis of the deposited data

How the results depend on the processing

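No paired analysis was possible because each genotype of each experiment was 1 library. The Neat1 ratio after ligation stayed past 0.25 in size under all alternatives. The Malat1 ratio over all plaque cells, 0.25, was under the threshold from summed UMIs (0.14), as a difference of mean log2 values (0.083), with cells thinned to 1 depth (0.20), with equal weight for 5 bins of depth (0.20) or of the digestion-induced share (0.22), standardised over classes (0.11), without cells under 2000 (0.18) or 1500 detected genes (0.21), without the 20% of cells with the highest mitochondrial share (0.22) and without Ifrd1 Nfkb1 Flnc-like cells (0.11). The Meg3 ratio in plaque, -0.16, was past the threshold from summed UMIs (-0.30) and without Ifrd1 Nfkb1 Flnc-like cells (-0.25), and that after ligation, -0.23, with a pseudocount of 0.1 (-0.30). Neat1 in the unnamed plaque cluster led by Ptprz1 went from 0.29 to -0.023 without the 20% of cells with the highest mitochondrial share. In Trf2T188A/ApoE-/- plaque, the median rho within 3 classes was 0.11 for Malat1 with UMIs and 0.098 with detected genes, against -0.21 over all cells, 0.15 and 0.17 for Neat1 and 0.13 and 0.13 for Meg3, and over thinned cells rho of Neat1 was -0.067 and -0.097. The H19 ratio was 1.05 without the cell with the most H19. The cause of these changes was not tested. Each ratio by class was computed anew under each alternative, and the values were counted over all ratios and alternatives. Of these values, 528 kept the side of the threshold of the main ratio, 44 passed it and 39 fell below it with their sign kept. In 1 value a called ratio changed sign. Ratios under the threshold also changed sign, such as Malat1 in Sparcl1 Sost contractile-like cells, from -0.06 up to 0.18. The alternatives by classes, by digestion-induced share, at 1500 genes and without named cells were chosen after seeing the data. Depth limits H19 most, whose values rest on 43, 8 and 1 UMIs in the tables that list it.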

Other observations

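Cells with a UMI of Cdkn2a, the gene of the senescence-associated inhibitor p16, were set beside the other cells of their library. Neat1 had a mean of 2.68 against 1.39 UMIs per 10000 in ApoE-/- plaque (49 cells with Cdkn2a) and of 2.05 against 1.51 in Trf2T188A/ApoE-/- plaque (56 cells), and of 6.43 against 7.56 in control (280 cells) and 4.09 against 5.14 in Trf2T188A ligation cells (391 cells). Over all classes together, Neat1 was thus higher in cells with Cdkn2a in plaque and lower after ligation. Malat1 was lower in cells with Cdkn2a in all 4 libraries, 234 against 296, 296 against 353, 300 against 324 and 315 against 324. Meg3 was higher in them in ApoE-/- plaque (2.46 against 1.88), control (3.39 against 3.01) and Trf2T188A ligation cells (2.90 against 2.41), and lower in Trf2T188A/ApoE-/- plaque (1.25 against 1.63). Cells with a Cdkn2a UMI were deeper. Their median was 55182 against 22436 UMIs in ApoE-/- and 38374 against 23788 in Trf2T188A/ApoE-/- plaque. After ligation it was 11236.5 against 8538 in control and 14214 against 10982 in Trf2T188A cells. The paper reported more Cdkn2a in some clusters than in others, and cells were not matched by class here. The part of depth and of cell class in these differences was not tested.

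Dlk1, the growth factor gene of the Meg3 domain that is expressed from the paternal chromosome, had 195 UMIs in ApoE-/- plaque, 7 in Trf2T188A/ApoE-/- plaque and 1 and 9 after ligation. Of the ApoE-/- UMIs, 192 were in 7 of 81 chondrocyte-like cells and 157 were in a single cell, and 0 of 63 chondrocyte-like cells of Trf2T188A/ApoE-/- plaque held Dlk1. All 9 ApoE-/- cells with Dlk1 also had Meg3, and none had H19. Igf2, the neighbour of H19, had 10, 3, 6 and 3 UMIs in the 4 libraries.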
